A study of Mus musculus with 8 samples.

Results

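miR-138 (mmu-miR-138) was measured by 2 probes on each of 8 mouse miRNA arrays, 4 from CpG-treated and 4 from untreated dendritic cells. It is 1 of the 567 mouse miRNAs on the array and was found by its systematic name in the scanner output and in the deposited per-array summaries. It was chosen by its values on these same arrays, which earlier results had shown to be lower with CpG, so its difference between the groups is described here without a test. The cells were grown from the marrow of C57BL/6 mice in 40 ng/ml of the myeloid growth factor GM-CSF, and those not attached to the dish were harvested on day 9. CpG cells then received the class B CpG oligonucleotide ODN1826, a ligand of Toll-like receptor TLR9, overnight at 10 µM. Untreated cells had the same culture without it, with the control given as medium in 1 label and as PBS in another, and no sample had a control oligonucleotide. The labels number the replicates 1 to 4 in each group without naming a mouse or culture for any of them, so that part or all of the spread behind each p-value may be technical.

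A miRNA guides the silencing complex to messenger RNAs that pair with its seed, the stretch near its 5′ end. miR-138 is best known from the brain, where it is abundant and in rat neurons limits the size of dendritic spines by repressing the depalmitoylating enzyme Lypla1. Its precursor is found in many mouse tissues that lack the mature miRNA, so that its maturation is thought to be regulated after transcription. In mammals it is cut from a pair of hairpins made from genes on different chromosomes.

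The mature miRNA and both hairpins are shown because they set what the probes can tell apart. RefSeq places Mir138-1 on the + strand at chr9:122682876-122682974 and Mir138-2 on the + strand at chr8:94324311-94324381 (GRCm38.p6). Mir138-2 lies within the span of Nup93, which encodes a nuclear pore protein, and Mir138-1 overlaps no other gene of that table. Capitals mark the seed (bases 2 to 8) in the mature miRNAs and both mature arms in the hairpins.
miR-138-5p: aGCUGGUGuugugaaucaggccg
miR-138-1-3p: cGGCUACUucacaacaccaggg
Mir138-1 hairpin: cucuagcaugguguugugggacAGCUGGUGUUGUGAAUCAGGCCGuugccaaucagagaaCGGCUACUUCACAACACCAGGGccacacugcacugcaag
Mir138-2 hairpin: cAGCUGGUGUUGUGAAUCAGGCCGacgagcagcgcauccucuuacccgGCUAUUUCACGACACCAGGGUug
The 5p arm, 23 bases long, has 1 sequence in both hairpins, so its signal is the sum of what both genes yield. Among 1679 mature mouse miRNA names in RefSeq, miR-138-5p was the 1 with this seed. The 3p arms differ, with 18 identical bases of 20 aligned. The array's annotation (mm9) puts the target of its miR-138 probes on chromosome 8, at 96848221 to 96848234 for A_54_P1073 and at 96848220 to 96848234 for A_54_P1074, and that of its miR-138* probes on chromosome 9, the chromosome of Mir138-1. The targets of the miR-138 probes are thus 14 and 15 bases long and share an end.

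miR-138 was a dim miRNA on these arrays, and its mean signal was lower in the CpG group. Whether the groups overlapped depended on how the arrays were scaled. Its deposited total gene signal, an unscaled intensity, was 4.89, 12.7, 10.6 and 18.8 units in CpG replicates 1 to 4. In untreated replicates 1 to 4 it was 9.00, 22.2, 13.7 and 24.5 units. CpG replicates 2, 3 and 4 lay within the untreated range and CpG replicate 1 lay below it. The means were 11.8 ± 5.76 units with CpG and 17.3 ± 7.24 units without (SD, n = 4 each). The deposited error of a single value was between 1.71 and 2.44 units. In bulk samples such as these, fewer cells that hold miR-138 and less of it per cell cannot be told apart.

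The scale matters because miRNAs detected on every array were brighter on the CpG arrays. The 75th percentile of signal, taken over the 177 mouse miRNAs that every array detected, was between 157 and 280.5 units on CpG arrays and between 101 and 144 units on untreated arrays, a 1.74-fold difference of geometric means (exact two-sided permutation p = 0.0286, the smallest that 4 against 4 arrays allow). Over all mouse miRNAs the percentile was 1.67 times higher with CpG and the groups overlapped (exact two-sided permutation p = 0.0571). The sum over the 5 haematopoietic and myeloid marker miRNAs, all detected on all 8 arrays, was between 104 and 131 times the 75th percentile over the 177 miRNAs with CpG and between 122 and 152 times without. Most of that sum was miR-21, at 6.68 with CpG and 6.79 without on the scaled log2 scale, so it says little about the other members. Those did not move alike after scaling: miR-223 differed by -0.60 (limma adjusted p = 0.0284), miR-142-3p by -0.20, miR-142-5p by -0.02 and miR-146a by 0.92 (limma adjusted p = 0.0355). The log2 75th percentile itself was higher by 0.80 with CpG, which is more than the decrease of miR-223. The lower value of miR-223 thus holds relative to the percentile only, and without scaling 0 miRNAs were called lower. The erythroid, liver and stromal and endothelial markers were detected on no array, and neither were 3 of 4 muscle and 2 of 5 epithelial markers. The summed scaled signal of the muscle markers was at most 0.0413 with CpG and 0 without. That of the epithelial markers, 1 of which was detected on all arrays, was between 0.0765 and 0.0865 with CpG and between 0.0373 and 0.121 without. The part of other cell types in the values of miR-138 was not tested. miR-155, which Toll-like receptor ligands are known to induce, averaged 4.22 ± 0.20 on the scaled log2 scale with CpG and 2.30 ± 0.48 without (SD, n = 4 each; limma adjusted p = 0.00096).

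After each array was divided by its 75th percentile, the groups did not overlap, while they did when the arrays were scaled on the hur control features instead. On this log2 scale, where 0 is the percentile, miR-138 was at -5.50, -4.75, -4.58 and -4.34 in CpG replicates 1 to 4. It was at -3.99, -2.92, -3.89 and -2.75 in untreated replicates 1 to 4. The highest CpG value thus lay below the lowest untreated one by a gap smaller than the SD of either group. The means were -4.79 ± 0.50 with CpG and -3.39 ± 0.64 without (SD, n = 4 each), a difference of -1.40, or 2.64-fold lower with CpG. Such a separation with CpG lower was seen in 42 of the 212 miRNAs tested (19.8%) and with CpG higher in 15 of 212 (7.08%), so that a separation alone is common among them. A decrease of 1 or more was seen in 5 of 212 (2.36%), and miR-714 was the 1 miRNA with a larger decrease (-1.90).

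**Figure D1:**
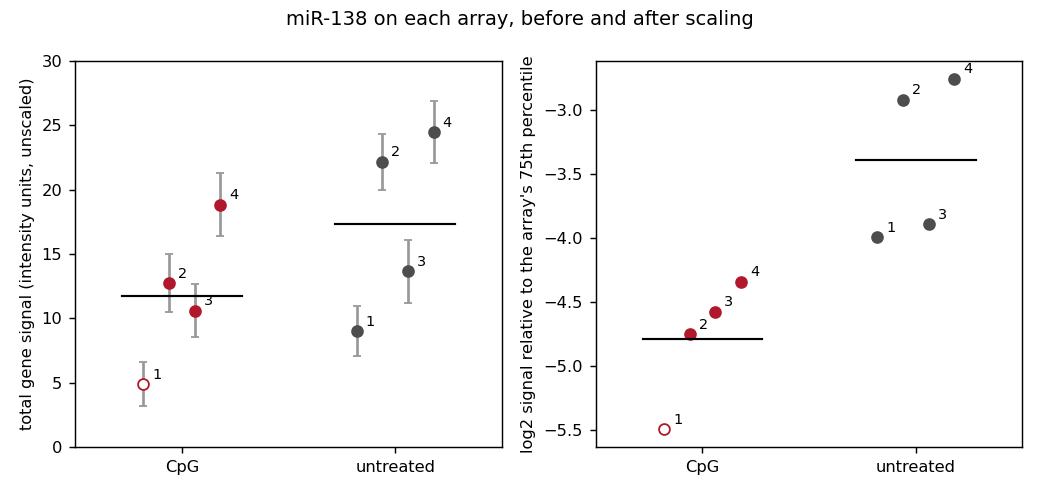
miR-138 on each array, CpG left and untreated right, as total gene signal in intensity units (left panel, bars are the deposited error of that value) and as log2 signal relative to the array's 75th percentile (right panel). Numbers are replicates, horizontal lines are group means and the open point is the array where miR-138 was not detected. The groups overlap on the left, with means of 11.8 and 17.3 units, and do not overlap on the right, with means of -4.79 and -3.39.

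A factor common to all miRNAs of an array shifts miR-138 and the median miRNA alike, so their distance is given as a description that such scaling cannot change. Across the 212 miRNAs tested the median log2 difference was -0.19 after scaling, and miR-138 lay below it, with a relative difference of -1.21. Without scaling the median was 0.60, miR-138 was at -0.60, and its difference relative to the median was -1.20. Scaled on the hur control features of the array, miR-138 was at -0.84 and at -1.20 relative to the median. With the background corrected by normexp, which does not act alike on dim and bright miRNAs, the relative difference was -0.75.

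Both probes of miR-138 gave lower means with CpG, and for each of them the unscaled groups overlapped. The 15-base probe A_54_P1074 read 4.67 ± 2.56, 12.2 ± 2.32, 10.4 ± 1.85 and 18.5 ± 1.61 units in CpG replicates 1 to 4 (SD over the 10 spots of an array). It read 8.66 ± 1.27, 20.9 ± 3.06, 11.4 ± 2.07 and 22.3 ± 1.91 units in untreated replicates 1 to 4. The 14-base probe A_54_P1073 had group means of 5.62 ± 2.87 units with CpG and 9.30 ± 4.21 units without (SD, n = 4 each). Between the 2 probes the order of the arrays within the CpG group was identical, and so was that within the untreated group. After scaling, the log2 difference was -1.32 for the 15-base probe and -1.56 for the 14-base probe, and for each of them the groups did not overlap. For the 14-base probe these values rest on signals near background, since 0 of its spots were well above background on CpG replicates 1 to 3 and on untreated replicate 1.

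**Figure D2:**
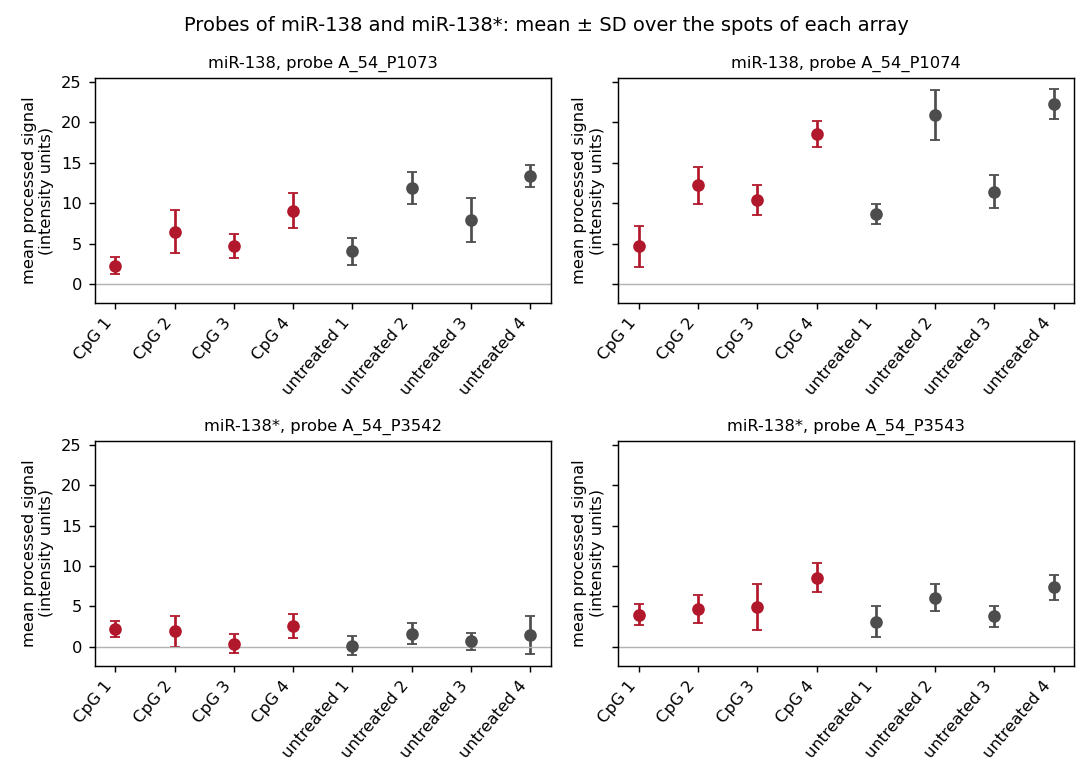
Mean processed signal in intensity units of each probe of miR-138 (top) and miR-138* (bottom) on the 4 CpG (red) and 4 untreated (grey) arrays, before scaling. Bars are the SD over the spots of 1 array without outlier flags. The 15-base probe A_54_P1074 of miR-138 reaches 18.5 units on CpG replicate 4 and 22.3 units on untreated replicate 4, and probe A_54_P3542 of miR-138* stays under 3 units on every array.

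Detection differed between the 2 groups in the same direction as the signal. By the deposited flag miR-138 was detected on 3 of 4 CpG arrays and on 4 of 4 untreated arrays. On CpG replicate 1, where it was not, its total gene signal was 2.86 times its error. Of the spots of both probes together, 29 of 80 were well above background with CpG and 50 of 80 without. Most of that gap lay in the 14-base probe, at 3 of 40 spots with CpG and 22 of 40 without. All 3 were on CpG replicate 4, and the untreated ones numbered 0, 10, 2 and 10 on replicates 1 to 4. The 15-base probe had 26 of 40 with CpG and 28 of 40 without. Spots of 1 array are not replicates of a group, so these counts only describe the arrays. These flags are set on unscaled signals. The local background around the spots of miR-138 was 41.5 ± 1.15 units with CpG and 41.9 ± 0.33 units without (SD, n = 4 each, exact permutation p = 0.40), which is more than the signal of miR-138 above it on any array.

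Values of miR-138 were scattered within both groups more widely than those of most tested miRNAs. Its SD on the scaled log2 scale was 0.50 in the CpG group, where 183 of the 212 tested miRNAs had a smaller one and the median was 0.28. In the untreated group it was 0.64, where 196 of 212 had a smaller SD and the median was 0.26. Untreated replicates 2 and 4 lay about 1 log2 unit above untreated replicates 1 and 3. The former were in slide columns 1 and 2 and the latter both in column 3, and an effect of column was not tested. Without CpG replicate 1, the array with the lowest value, the difference was -1.17.

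Each of the 2 slide rows held 2 CpG and 2 untreated arrays. The slide columns were not balanced, as column 3 held untreated arrays and column 4 CpG arrays, and an effect of column was not tested. Within row 1 the scaled log2 difference of miR-138 was -1.55, and within row 2 it was -1.26. In total gene signal, unscaled, the mean was lower with CpG by 1.41-fold in row 1 and by 1.54-fold in row 2. Arrays of the same replicate number sat side by side in a row. Between them the scaled log2 difference was -1.51, -1.83, -0.69 and -1.59 for replicates 1 to 4. Total gene signal, unscaled, was lower with CpG by 1.84-fold, 1.74-fold, 1.29-fold and 1.30-fold. No label says what a shared number marks, so these values are a description.

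**Figure D3:**
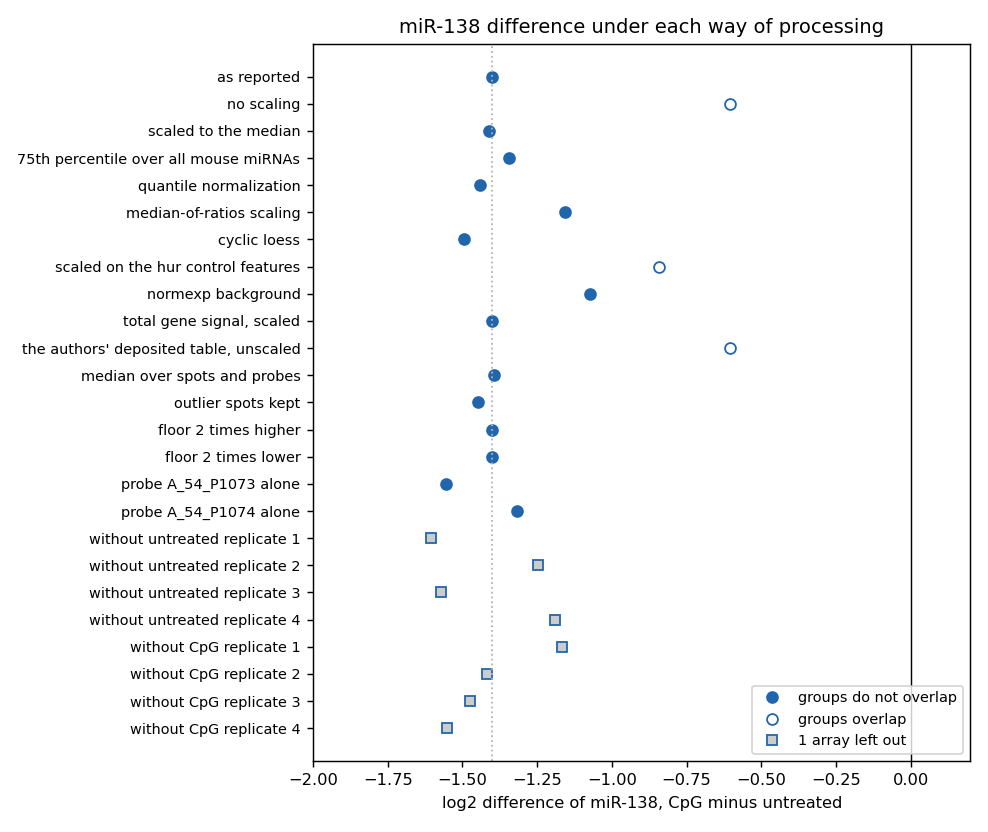
Log2 difference of miR-138, CpG minus untreated, as reported (top row) and under each other way of processing the arrays. Filled circles mark settings where the groups do not overlap, open circles those where they do, and squares those with 1 array left out. All values lie below 0, from -0.60 without scaling to -1.60 without untreated replicate 1.

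The passenger arm miR-138* was too dim to be compared in the same way. It was detected on 1 CpG array (replicate 4) and on 2 untreated arrays (replicates 2 and 4), and was not among the miRNAs tested. Its total gene signal was 5.02 ± 1.74 units with CpG and 4.13 ± 1.74 units without (SD, n = 4 each), and after scaling the log2 means were -5.92 ± 0.31 and -5.46 ± 0.64. The signs of those 2 differences are opposite and neither was rare among the relabellings of the arrays (exact permutation p = 0.54 and 0.29). Probe A_54_P3542 had 0 of 80 spots well above background and probe A_54_P3543 had 3 of 40 with CpG and 4 of 40 without. Whether the 2 arms differ in how they respond was therefore not detectable at this signal.

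The miRNAs whose values over the 8 arrays were most like those of miR-138 were lower with CpG too, by smaller amounts. Likeness was the mean absolute difference between log2 values, each miRNA centred on its own mean, and its median over 211 miRNAs was 0.69. miR-139-5p was nearest at 0.35, followed by miR-30c at 0.39, miR-200b and miR-378 at 0.41 and miR-26a at 0.42. These points share the arrays and their scaling factors, so that the likeness is a description and no sign of shared control. The measure also spans both groups and so includes the decrease for which miR-138 was chosen. That the 5 were lower with CpG, and by less, largely follows from how they were picked and is no separate result. miR-139-5p is encoded within the phosphodiesterase gene Pde2a and is shown since it came first, with a seed different from that of miR-138.
miR-139-5p: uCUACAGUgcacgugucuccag
It averaged -4.11 ± 0.18 with CpG and -3.09 ± 0.25 without (SD, n = 4 each), a difference of -1.01. The other 4 differed by -0.81 for miR-30c, -0.77 for miR-378, -0.60 for miR-26a and -0.59 for miR-200b, an epithelial miRNA. Without scaling, miR-139-5p and miR-30c were at -0.21 and -0.01 and the other 3 turned positive, at 0.03 for miR-378, 0.20 for miR-26a and 0.21 for miR-200b. None of the 5 had as wide a spread as miR-138 in either group, with SDs of 0.15 to 0.30 with CpG and 0.18 to 0.39 without.

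**Figure D4:**
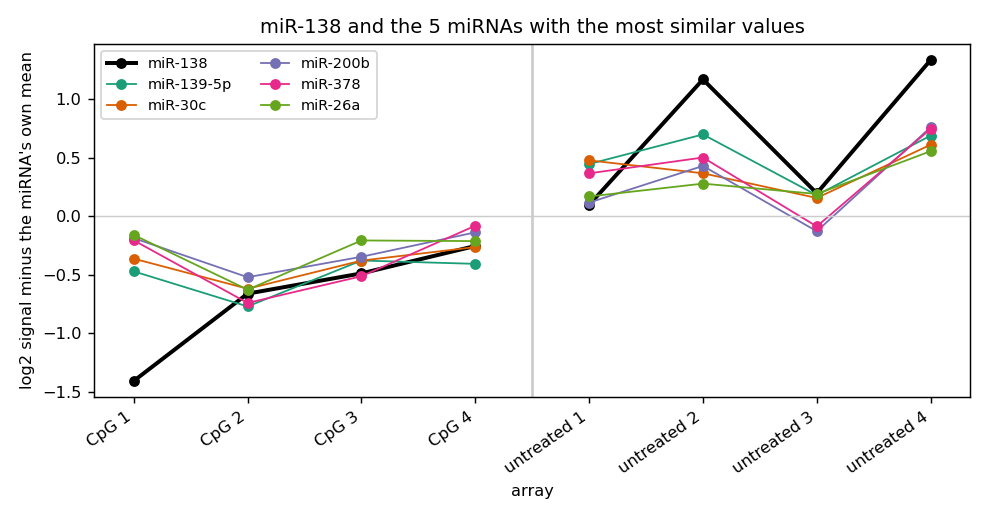
Log2 signal of miR-138 and of the 5 miRNAs most like it on each array, minus each miRNA's own mean over the 8 arrays. Lines join values of 1 miRNA within a group and the replicates have no order. miR-138 (black) spans more than the others, from CpG replicate 1 to untreated replicate 4, and the nearest of the 5 is miR-139-5p, at a mean absolute difference of 0.35.

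After scaling to the 75th percentile, 0 of the other miRNAs known for high levels in the brain passed the test between CpG and untreated cells. The list held 24 such miRNAs, of which 12 were detected on no array, among them miR-124, the most abundant miRNA of neurons, and miR-137, miR-153 and miR-218. Of the 9 that could be tested, 0 were called lower and 0 higher by limma with Benjamini-Hochberg adjustment over 212 miRNAs, and 1 had an unadjusted p under 0.05. Over all tested miRNAs 6.6% were called lower and 7.55% higher. The median log2 difference of the 9 was -0.17, near the -0.19 of all tested miRNAs.

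By name, the 4 tested list members of highest signal were miR-7a, miR-338-3p, miR-9* and miR-212. miR-7a, which is also abundant in endocrine cells, averaged -1.56 ± 0.36 with CpG and -2.23 ± 0.36 without (SD, n = 4 each). Its log2 value was thus higher by 0.67 with an SE of 0.23, which did not pass the threshold (limma adjusted p = 0.0764). It was higher by 1.47 without scaling (limma adjusted p = 0.0175) and by 1.23 on the control features (limma adjusted p = 0.0175). miR-338-3p, which promotes the maturation of oligodendrocytes, differed by -0.16 (limma adjusted p = 0.64). miR-9*, the passenger arm of the neurogenic miR-9, differed by -0.15 (limma adjusted p = 0.72). miR-212, which is induced by CREB in neurons, differed by -0.23 (limma adjusted p = 0.27). The sign of those last 3 turned without scaling and on the control features, where 0 of the 9 members were negative. miR-338-3p then passed as higher without scaling (0.64, limma adjusted p = 0.0437) and miR-212 on the control features (0.33, limma adjusted p = 0.0476). Both values lay near the median of all 212 miRNAs tested, which was 0.60 without scaling and 0.36 on the control features. In all, 88 of the 212 were called higher without scaling and 70 on the control features, so such calls were common there. Leaving out 1 array gave 1 call without untreated replicate 3 (miR-7a) and 2 calls without CpG replicate 1 (miR-7a and miR-219). Over all 212 miRNAs, these 2 runs called 15 and 39 higher, and 15 and 29 lower. With normexp, miR-125b-5p, miR-128 and miR-219 were called lower, where 86 of 212 were. Summed over the 9 neuronal markers, of which 4 were detected on all arrays and 4 on none, the scaled signal was between 0.444 and 0.741 with CpG and between 0.424 and 0.791 without, so that the groups overlapped.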

How the data were processed

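Per the file headers, the 8 arrays were read in 1 colour by Agilent's Feature Extraction software, version 9.5.3.1. The deposited spot values are intensity with background and spatial trend removed, unscaled between arrays, and the summaries hold each miRNA's total gene signal and whether it was detected. The authors' deposited table of 260 miRNAs held the same intensity: 2039 of 2080 values were equal within 0.1%, and the other 41 stood at 0.01 where the signal was at or below that. The submitters' processing notes name limma.

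Spots without outlier flags were averaged per probe and probes per miRNA. Arrays were divided by their 75th percentile over the 177 miRNAs detected on all arrays, floored at 0.0107 (the median over arrays of the lowest detected signal) and taken to log2. miRNAs detected on at least 3 of 4 arrays of a group, 212 in all, were fitted with limma 3.58.1 in R 4.3.3 and adjusted by Benjamini-Hochberg (threshold 0.05), and the fit was tested on simulated data. Single values were compared by exact two-sided permutation. Normexp was run with an offset of 0. Named miRNAs are miR-138 and its passenger arm, the 5 most alike, called members of the brain list with up to 4 more of highest signal, miRNAs sharing the seed, and miR-155. miR-138 and all lists were chosen with earlier results of these data known. Other scalings, backgrounds, probe summaries, floors, filters, blocks and left-out arrays were tried. Precision is limited by the number of arrays. Python 3.11.15 drew the figures.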

Additional observations from a re-analysis of the deposited data

Results flagged for a closer look

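A single array stood apart from the rest of its group in 3 of 36 sets of values examined, and by chance about 1 set in 20 would do so. No value of miR-138 was among those 3. CpG replicate 1, the array with the lowest miR-138, read -2.10 for miR-7a on the scaled log2 scale, against a mean of -1.38 on the other 3 CpG arrays. CpG replicate 2 read 0.47 for miR-26a, against 0.90 on the other 3. The number of mouse miRNAs detected was 203 on untreated replicate 2 and averaged 192 over the remaining untreated arrays.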

How the results depend on the processing

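The log2 difference of miR-138 was negative in every alternative run that included miR-138, which the filter on detection on all 8 arrays removed. It was -0.60 without scaling and -0.61 in the authors' deposited table, which is unscaled, and lay between -1.60 and -1.17 when 1 array was left out. With the replicate number as a block it was again -1.40, since the block leaves a difference of group means as it is. The slide row block, the eBayes trend and the run with no filter could not change it either, and it was also -1.40 with both other floors. The replicate numbers were not taken to pair the arrays, since array names share only the number and no label says what it marks. Deviations of same-numbered arrays correlated at 0.28, -0.26, 0.25 and 0.10 for replicates 1 to 4, and 1 of 4 CpG arrays correlated best with its own number. The replicate block moved the miRNAs called lower to 22, against 14. That count was 0 without scaling and in the deposited table, 7 with the median and with the percentile over all miRNAs, 5 with median-of-ratios, 9 with cyclic loess, 2 on the control features, 86 with normexp, 25 with medians over spots, 34 with a floor 2 times higher, 1 with no filter, 29 with eBayes trend, and 2 to 29 with 1 array left out. The count called higher, 16 as reported, was 88 without scaling, 93 in the deposited table, 70 on the control features, 9 with quantile, 7 with normexp, 2 with no filter, and 3 to 39 with 1 array left out. Of the brain list, 2 members were called without scaling, 2 on the control features and 3 in the deposited table, all of them higher. Over all 212 miRNAs tested, 88, 70 and 93 were called higher in those settings. With normexp 3 members were called, all lower, where 86 of 212 were called lower. With 1 array left out 0 to 2 members were called. Over all mouse miRNAs the 75th percentile was 1.67 times higher with CpG (exact permutation p = 0.0571). For the percentile over miRNAs detected on every array, the ratio without 1 array was 1.58 to 1.92. Its exact permutation p was 0.0571 without any 1 untreated array and 0.0286 without any 1 CpG array. The groups did not overlap in any of these runs, as the lowest CpG array was at 157 units and the highest untreated array at 144 units. The larger p thus does not mark an overlap. Signs turned, without scaling and in the deposited table, for miR-200b (0.21 and 0.20), miR-378 (0.031 and 0.029), miR-26a (0.20 and 0.20), miR-338-3p (0.64 and 0.64), miR-212 (0.57 and 0.57) and miR-9* (0.65 and 0.65). They also turned for miR-338-3p (0.40), miR-212 (0.33) and miR-9* (0.41) on the control features, for these 3 with median-of-ratios (0.084, 0.016 and 0.092), for miR-338-3p without CpG replicate 2 (0.046, range over single arrays left out -0.36 to 0.046) and for miR-9* without untreated replicate 1 (0.052, range -0.36 to 0.052). The cause was not tested. Signal over background limits miR-138, and more so miR-138*.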
